A study of Mus musculus with 8 samples.

Results

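The NF-kB transcription factors, their inhibitors and a set of their inflammatory targets were followed in whole brain of mice that lack SIRT1 in the brain (BSKO, brain-specific knockout) and of wild-type littermates (WT). The list named 10 genes, and its members were all the probe sets that carry one of these names as their only gene symbol. It found 17 probe sets for 9 genes, out of 22626 probe sets and 12393 genes in the table: Rela, Tnfaip3, Icam1, Ccl2 and Il1b with 1 probe set each, Nfkb2 with 2, Vcam1 and Socs3 with 3 each, and Nfkbia with 4. Nfkb1 has no probe set under its own single symbol and was not analysed here. Each genotype had 4 biological replicates, all males aged 3 months on a C57/B6 background, and total RNA from each brain was hybridised to its own Affymetrix Mouse430A_2 array, a chip that reads each transcript with sets of short probes. The promoter or driver line behind the deletion, and the deleted part of Sirt1, are not given in the sources used here.

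NF-kB is a family of dimeric transcription factors that wait in the cytoplasm, held there by inhibitor proteins. Cytokine or pattern receptors trigger a kinase that marks the inhibitor for destruction, the dimer enters the nucleus, and it switches on cytokines, chemokines and adhesion molecules together with its own inhibitors. SIRT1 is an NAD-dependent deacetylase that acts on the RelA protein and lowers its activity as a transcription factor. In brain the pathway is known from microglia, astrocytes, endothelium and neurons. Whole-brain RNA mixes all of these, so fewer cells of a type and less RNA per cell cannot be told apart.

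Some of the sequences that make a gene an NF-kB target sit in its promoter. The windows of the 3 members whose window holds the NF-kB consensus are shown here, with that of Socs3, the member known as a STAT3 target. They run from 250 bases before to 50 bases after the transcription start, 5′ to 3′ on the gene's own strand, as listed by RefSeq for GRCm38.p6. Capitals mark matches, on either strand, to the NF-kB consensus or to TTCNNNGAA, the core that STAT proteins bind.
Nfkb2, chr19:46304487-46304786, plus strand: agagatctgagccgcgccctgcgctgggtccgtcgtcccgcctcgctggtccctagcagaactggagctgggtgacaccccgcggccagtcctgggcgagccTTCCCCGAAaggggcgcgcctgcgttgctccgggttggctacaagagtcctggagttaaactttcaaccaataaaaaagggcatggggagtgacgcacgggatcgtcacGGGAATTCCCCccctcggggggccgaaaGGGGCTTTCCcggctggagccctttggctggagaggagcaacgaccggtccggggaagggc
Nfkbia, chr12:55492598-55492897, minus strand: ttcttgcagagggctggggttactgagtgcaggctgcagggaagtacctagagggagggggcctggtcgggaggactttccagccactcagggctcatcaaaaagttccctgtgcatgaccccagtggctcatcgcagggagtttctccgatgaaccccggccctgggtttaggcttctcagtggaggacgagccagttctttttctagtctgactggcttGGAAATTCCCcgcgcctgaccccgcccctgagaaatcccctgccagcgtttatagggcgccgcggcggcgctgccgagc
Tnfaip3, chr10:19015361-19015660, minus strand: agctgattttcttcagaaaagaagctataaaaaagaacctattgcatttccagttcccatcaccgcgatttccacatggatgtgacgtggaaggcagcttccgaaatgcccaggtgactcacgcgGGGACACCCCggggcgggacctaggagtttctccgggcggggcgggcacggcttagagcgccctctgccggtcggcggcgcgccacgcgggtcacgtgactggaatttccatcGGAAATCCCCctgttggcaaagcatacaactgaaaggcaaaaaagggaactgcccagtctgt
Socs3, chr11:117969317-117969616, minus strand: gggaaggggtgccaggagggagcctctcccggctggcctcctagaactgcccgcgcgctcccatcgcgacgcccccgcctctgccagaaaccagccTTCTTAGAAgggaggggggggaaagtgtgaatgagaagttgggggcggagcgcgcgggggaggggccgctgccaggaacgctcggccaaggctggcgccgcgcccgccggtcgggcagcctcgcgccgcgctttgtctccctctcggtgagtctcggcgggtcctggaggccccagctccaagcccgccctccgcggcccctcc

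Nfkbia, the gene of the inhibitor IkB-alpha, has 1 consensus match, GGGAATTTCC on the opposite strand, 29 to 20 bases before its start. Tnfaip3, shown by 1 of its 2 windows, has 2 such matches, GGGACACCCC from 125 bases before the start and GGGGATTTCC on the opposite strand from 12 bases before it. Nfkb2, shown by the one of its 3 listed windows with the most matches, has overlapping matches 39 to 29 bases before the start, another, GGGGCTTTCC, 11 bases before it, and a TTCNNNGAA match. In the Socs3 window the capitals, TTCTTAGAA, are the TTCNNNGAA match and lie 154 to 146 bases before the start. A window was listed for 7 of the 10 genes. The NF-kB consensus was found in those of 3 genes, against 5.14% of the 27025 mouse genes with a listed window (4.51% of 32851 windows). TTCNNNGAA was found in windows of Nfkb2, Icam1 and Socs3 against 9.55% of genes (8.30% of windows). The Rela and Il1b windows held neither. A match is a run of letters and not a measured binding site.

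The deposited values are log2 values from which each probe set's own median over the 8 arrays had been taken off, so a value says how far an array lies from that median and nothing about the level of expression. For the same reason the labelled tissue could not be checked by the presence of its markers. One knockout array, BSKO 2, stood apart. The SD over all probe sets was 0.831 on it and 0.150 to 0.314 on the other 7 arrays, and its 5′ minus 3′ probe set difference for beta-actin was -2.44, against -0.104 to 0.489 on the others. The 17 member probe sets lay further out still on this array, with a median distance of 0.798 from 0, against 0.467 for all probe sets on the same array and 0.051 to 0.203 for the members on the others. For each member gene the difference is therefore given with all 8 arrays and without BSKO 2. The targeted gene, Sirt1, read 0.076, -1.46, -0.205 and -0.059 on BSKO 1 to 4, against 0.004, -0.004, 0.082 and 0.288 on WT 1 to 4. BSKO 1 lay within the WT range. The difference was -0.50 with 8 arrays (SE 0.31, limma adjusted p = 0.504) and -0.155 without BSKO 2 (SE 0.099, limma adjusted p = 0.401), and whether its probe set lies in the deleted part was not tested.

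The comparison of BSKO with WT asks whether loss of a deacetylase that acts on RelA goes with a change in the RNA of the pathway. No member passed the test over all probe sets in either fit. Vcam1, an endothelial adhesion molecule, had the smallest p. As the mean of its 3 probe sets it was 1.31-fold lower in BSKO brain with 8 arrays, where 1 probe set carried most of the difference, and 1.26-fold lower without BSKO 2. Rela lay narrowly above WT on every BSKO array. So did Nfkb2 as the mean of its 2 probe sets, far above on BSKO 2 and closer on the others, though neither probe set separated the genotypes. Nfkbia lay below WT on the other 3 BSKO arrays once BSKO 2 was left out. The cytokine Il1b, the chemokine Ccl2 and the feedback gene Socs3 overlapped between the genotypes in both fits.

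By limma with Benjamini-Hochberg adjustment over all 22626 probe sets, 0 of the 17 member probe sets had an adjusted p under 0.05 with 8 arrays, where 0.0309% of all probe sets passed. Without BSKO 2 the count was again 0, where 1.63% passed. At an unadjusted p under 0.05 there was 1 member probe set with 8 arrays, against 10.8% of all, and 6 without BSKO 2, against 19.8% of all. At an adjusted p under 0.10 there were 3 without BSKO 2, 2 of Vcam1 and 1 of Nfkbia, against 5.0% of all. With 1 value per gene, the mean of its probe sets, the adjusted p of the 9 genes ran between 0.216 and 0.720 with 8 arrays and between 0.0699 and 0.988 without BSKO 2 (limma, adjusted over 12393 genes). The median difference over the 9 genes was 0.18 with 8 arrays and 0.02 without BSKO 2, against 0.03 and 0.015 over all genes. BSKO and WT did not overlap for 3 of the 9 genes with 8 arrays, Rela, Nfkb2 and Vcam1, against 13.2% of all genes. Without BSKO 2 Nfkbia joined them, making 4 of 9, against 20.5% of all genes.

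**Figure D1:**
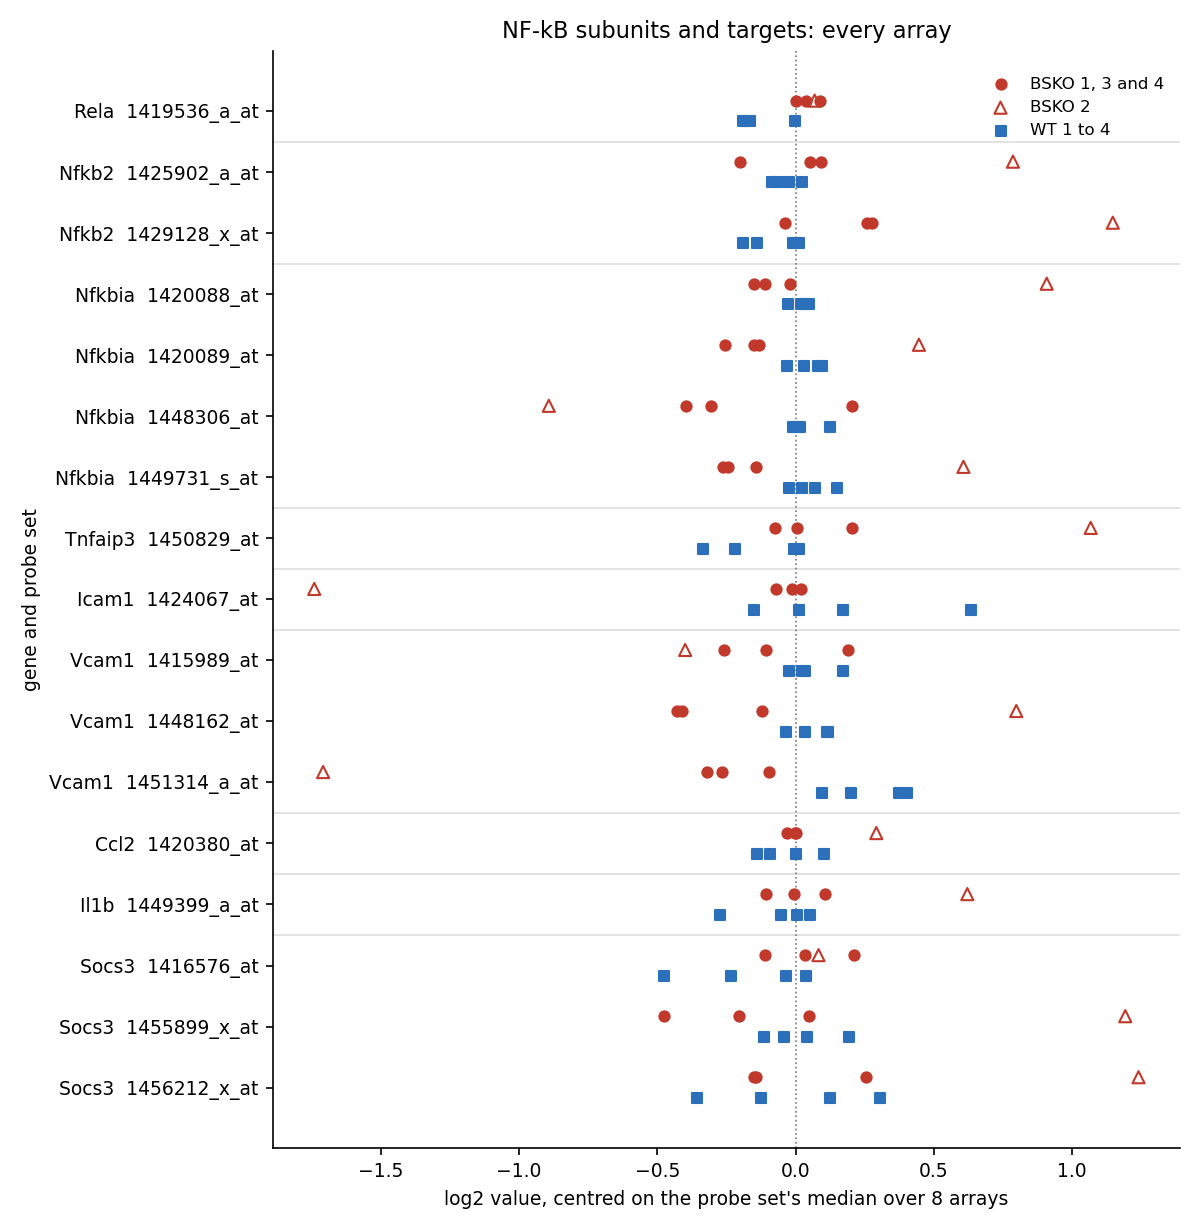
Centred log2 values (horizontal axis) of the 17 probe sets of the 9 genes, with BSKO arrays in red above WT arrays in blue on each row and BSKO 2 as an open triangle. BSKO 2 lies away from the other 7 arrays on most rows, to the left for Icam1 (-1.74) and 1 Vcam1 probe set (-1.71) and to the right for Tnfaip3 (1.07) and 2 Socs3 probe sets (1.19 and 1.24).

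Rela encodes RelA (p65), the subunit that carries the activation domain of the common NF-kB dimer. Its probe set 1419536_a_at read 0.003, 0.069, 0.088 and 0.038 on BSKO 1 to 4, against -0.003, -0.190, -0.165 and -0.179 on WT 1 to 4. All BSKO arrays were above all WT arrays, narrowly so over WT 1, and BSKO 2 lay among the other BSKO arrays. The group means were 0.05 ± 0.04 in BSKO and -0.13 ± 0.09 in WT (SD, n = 4 each), a log2 difference of 0.18 (SE 0.085, 95% interval -0.010 to 0.38, limma adjusted p = 0.426). Without BSKO 2 the difference was 0.18 (SE 0.068, 0.019 to 0.34, limma adjusted p = 0.195), or 1.13-fold higher. The upper end of that interval is 1.26-fold.

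Nfkb2 encodes p100, which is cut to the p52 subunit of the non-canonical pathway and is itself an NF-kB target. Probe set 1429128_x_at read -0.037, 1.15, 0.276 and 0.257 on BSKO 1 to 4, against -0.190, -0.138, -0.011 and 0.011 on WT 1 to 4. On probe set 1425902_a_at the BSKO arrays read 0.053, 0.786, -0.201 and 0.091, against 0.025, -0.025, -0.084 and -0.064 in WT. BSKO 2 was the highest array on both, and the other BSKO arrays overlapped WT on each. Their mean lay at 0.008, 0.967, 0.037 and 0.174 on BSKO 1 to 4, against -0.082, -0.082, -0.048 and -0.026 in WT, so the genotypes separated on the mean and on neither probe set. The mean differed by 0.36 with 8 arrays (SE 0.20, 95% interval -0.11 to 0.82, limma adjusted p = 0.479) and by 0.13 without BSKO 2 (SE 0.064, -0.014 to 0.28, limma adjusted p = 0.274). Leaving out BSKO 4 as well gave 0.082 (limma adjusted p = 0.556). With only BSKO 2 left out, the probe sets did not track each other across the other 7 arrays (Pearson r = -0.28, as a description). Their differences were then 0.25 for 1429128_x_at and 0.018 for 1425902_a_at. The ending _x_at marks a probe set that can also bind other transcripts.

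Nfkbia encodes IkB-alpha, the inhibitor that NF-kB induces to switch itself off, and its RNA is a common readout of pathway activity. Probe set 1449731_s_at read -0.263, 0.607, -0.144 and -0.246 on BSKO 1 to 4, against 0.149, 0.022, -0.022 and 0.069 on WT 1 to 4. On probe set 1420089_at the BSKO values were -0.150, 0.446, -0.133 and -0.254, against 0.097, 0.080, 0.031 and -0.031 in WT. BSKO 1, 3 and 4 lay below every WT array on both, and BSKO 2 lay above every WT array. Probe set 1420088_at had -0.152, 0.908, -0.019 and -0.110 on the BSKO arrays, against 0.019, 0.040, -0.026 and 0.049 on the WT arrays. The fourth, 1448306_at, had -0.307, -0.892, 0.203 and -0.396 in BSKO, against 0.017, 0.009, 0.125 and -0.009 in WT. On this last one BSKO 2 was the lowest array, so that the probe sets of 1 gene spanned 1.80 on BSKO 2, against 0.071 to 0.347 on any other array.

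With the 4 probe sets averaged, Nfkbia differed by -0.095 with 8 arrays (SE 0.12, 95% interval -0.38 to 0.19, limma adjusted p = 0.720), and by -0.041 or -0.030 when BSKO 1 or BSKO 4 was left out. Without BSKO 2 the difference was larger and its error smaller, at -0.20 (SE 0.071, -0.37 to -0.038, limma adjusted p = 0.167), from -0.16 ± 0.12 in BSKO (SD, n = 3) and 0.04 ± 0.02 in WT (SD, n = 4), or 1.15-fold lower. Each of the 4 probe sets had a negative difference in that fit, between -0.11 for 1420088_at and -0.27 for 1449731_s_at. Across the 7 arrays their pairwise correlations were between 0.60 and 0.89, whereas with BSKO 2 they ranged between -0.72 and 0.97 (Pearson r over arrays that differ in genotype, as a description). The smallest limma adjusted p among the 4 was 0.0999. With array weights the Nfkbia mean passed in both fits (-0.25, limma adjusted p = 0.0364, with 8 arrays, and -0.26, limma adjusted p = 0.0289, without BSKO 2). In the weighted fit over probe sets with 8 arrays, BSKO 2 had a weight of 0.0456.

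Tnfaip3 encodes A20, a ubiquitin-editing enzyme that shuts off signalling to NF-kB and is another of its early targets. Its probe set 1450829_at read -0.073, 1.07, 0.004 and 0.203 on BSKO 1 to 4, against -0.004, 0.011, -0.219 and -0.334 on WT 1 to 4. BSKO 2 was the highest array, BSKO 4 lay above every WT array, and BSKO 1 and 3 lay inside the WT range. The difference was 0.44 with 8 arrays (SE 0.24, 95% interval -0.11 to 0.99, limma adjusted p = 0.472). It was 0.18 without BSKO 2 (SE 0.11, -0.072 to 0.43, limma adjusted p = 0.378), and 0.10 or 0.12 when BSKO 4 or WT 4 was left out as well. Thus the 3 members with a consensus match in their promoter window did not share a direction without BSKO 2: Tnfaip3 and Nfkb2 had positive differences and Nfkbia a negative one, none of which passed.

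**Figure D2:**
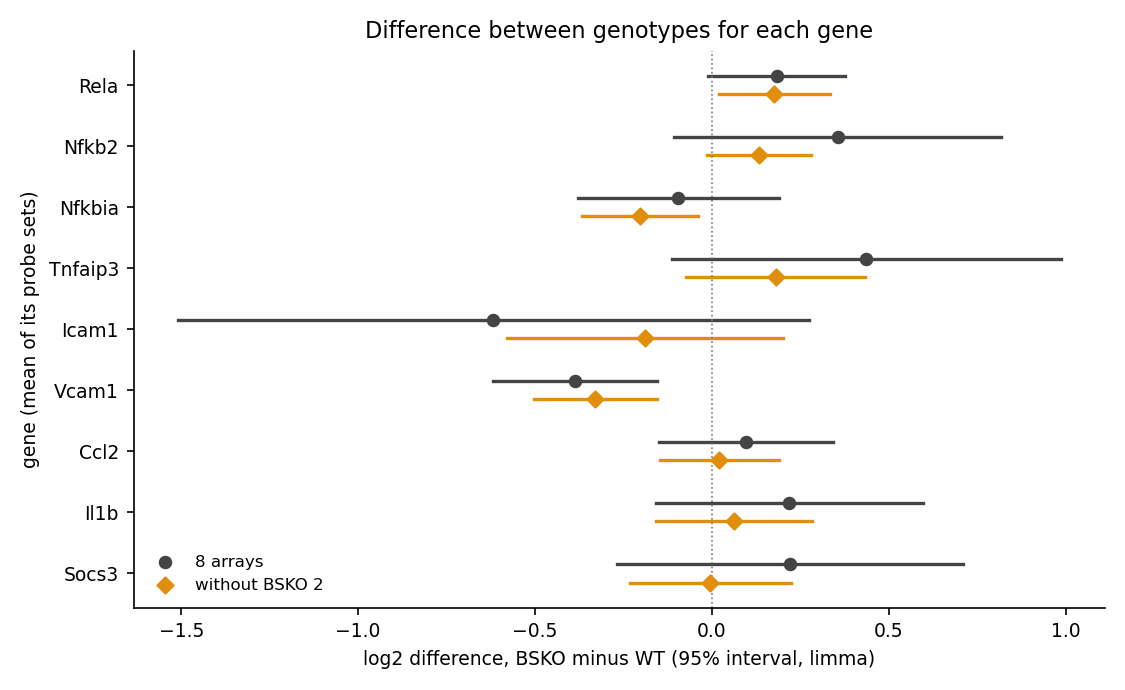
Log2 difference between BSKO and WT (horizontal axis) of each gene with its 95% interval from limma, with all 8 arrays (dark circles) and without BSKO 2 (orange diamonds). Vcam1 has both intervals below 0 (-0.62 to -0.16 and -0.50 to -0.16), and the interval of Icam1 is the widest with 8 arrays (-1.51 to 0.28).

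Icam1 and Vcam1 encode the adhesion molecules that activated endothelium shows to passing leukocytes. Icam1, on probe set 1424067_at, read -0.012, -1.74, -0.071 and 0.020 on BSKO 1 to 4, against 0.633, 0.173, -0.152 and 0.012 on WT 1 to 4. BSKO 1, 3 and 4 lay close together within the WT range, while WT 1 was the highest array and BSKO 2 by far the lowest. The difference of -0.62 with 8 arrays (SE 0.39, limma adjusted p = 0.517) became -0.19 without BSKO 2 (SE 0.17, 95% interval -0.58 to 0.20, limma adjusted p = 0.558) and -0.032 or -0.29 when WT 1 or WT 3 was left out as well.

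Vcam1 was measured by 3 probe sets. On 1451314_a_at the BSKO arrays read -0.266, -1.71, -0.097 and -0.321, against 0.375, 0.403, 0.200 and 0.097 on WT 1 to 4. Every BSKO array was below every WT array there. Probe set 1448162_at had -0.121, 0.798, -0.429 and -0.411 on BSKO 1 to 4, against 0.115, 0.117, -0.033 and 0.033 in WT. BSKO 1, 3 and 4 were again below all WT arrays, but BSKO 2 was above them. The third, 1415989_at, had -0.108, -0.399, 0.189 and -0.259 in BSKO, against 0.025, 0.033, 0.171 and -0.025 in WT, and BSKO 3 was its highest array. The probe sets of Vcam1 thus spanned 2.51 on BSKO 2, the widest of the 4 genes with several, against 0.122 to 0.618 on the other arrays.

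The mean of the 3 probe sets lay at -0.165, -0.437, -0.112 and -0.331 on BSKO 1 to 4, against 0.172, 0.185, 0.113 and 0.035 on WT 1 to 4. The genotypes did not overlap, and BSKO 2 was the lowest. The means were -0.26 ± 0.15 in BSKO and 0.13 ± 0.07 in WT (SD, n = 4 each), a difference of -0.39 (SE 0.10, 95% interval -0.62 to -0.16, limma adjusted p = 0.216). Without BSKO 2 the difference was -0.33 (SE 0.075, -0.50 to -0.16, limma adjusted p = 0.0699), which misses the threshold of 0.05. With 8 arrays the probe set differences were -0.87 for 1451314_a_at, -0.099 for 1448162_at and -0.20 for 1415989_at. Without BSKO 2 they were -0.50 for 1451314_a_at (limma adjusted p = 0.0568), -0.38 for 1448162_at (limma adjusted p = 0.0889) and -0.11 for 1415989_at (limma adjusted p = 0.621). On the mean of the 3 probe sets, the single array BSKO 1 lay -0.34 from the mean of WT 1 and WT 2, and BSKO 3 and 4 lay -0.295 from WT 3 and WT 4. By probe set these 2 differences were -0.655 and -0.357 on 1451314_a_at, -0.237 and -0.42 on 1448162_at, and -0.137 and -0.108 on 1415989_at. Only 2 of the alternatives brought the mean past the threshold with 8 arrays, quantile normalization (-0.44, limma adjusted p = 0.0472) and array weights (-0.40, limma adjusted p = 0.0113). The limma adjusted p of the mean ran from 0.0113 to 0.621 over its alternatives, and that of 1448162_at alone was 0.862. Leaving out probe sets that match more than a single transcript (endings _s_at, _x_at and _a_at, here 1451314_a_at) reduced the mean most, to -0.15 with 8 arrays (limma adjusted p = 0.593) and -0.245 without BSKO 2 (limma adjusted p = 0.126). With array weights alone the mean also passed without BSKO 2 (-0.41, limma adjusted p = 0.0140, in a range of 0.0140 to 0.187 for the mean).

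Markers of several cell types were read beside Vcam1. The 11 endothelial markers had a mean of -0.001 on BSKO 2 and -0.158 to 0.129 on the other BSKO arrays, against -0.061 to 0.128 in WT, and 0 of them passed in either fit. Without BSKO 2 their differences were positive in 5 and negative in 6 (median -0.033), with -0.24 for Pecam1 and -0.21 for Cdh5, the 2 with the smallest p. All 9 markers of meninges and fibroblasts had negative differences in both fits. Their mean was -0.775 on BSKO 2 and -0.603 to -0.228 on the other BSKO arrays, against 0.134 to 0.796 in WT. Of these, Ogn (-1.39, limma adjusted p = 0.0300) and Lum (-0.85, limma adjusted p = 0.0455) fell without BSKO 2. The 8 astrocyte markers had a mean of -0.459 on BSKO 2 and -0.149 to 0.026 on the others, against -0.016 to 0.152 in WT. Without BSKO 2 their differences were positive in 2 and negative in 6 (median -0.079). The 2 with the smallest p were Gfap (-0.67, limma adjusted p = 0.0547) and Aldoc (-0.26). The 13 microglial markers, with a mean of -0.296 on BSKO 2 and -0.148 to 0.221 on the others, against -0.125 to 0.113 in WT, overlapped between the genotypes, with 0.31 for Aif1 and -0.10 for Itgam without BSKO 2. The 5 markers of striatal projection neurons lay the other way, with means of 0.124 on BSKO 2 and 0.196 to 1.29 on the other BSKO arrays, against -1.89 to -0.036 in WT, and 0 of them passed. WT 1 and WT 2 stood apart from WT 3 and WT 4 on both lists, with striatal means of -1.89 and -1.80, against -0.036 and -0.177, and meningeal means of 0.796 and 0.781, against 0.148 and 0.134. BSKO 1 and BSKO 2 also stood apart from BSKO 3 and BSKO 4, with striatal means of 0.196 and 0.124, against 1.29 and 1.13. Their meningeal means were -0.603 and -0.775, against -0.238 and -0.228, lower where those of WT 1 and WT 2 were higher. Over the 8 arrays the list means had a Pearson r with Vcam1 of 0.89 (meninges), 0.84 (astrocytes), 0.23 (endothelium), 0.14 (microglia) and -0.70 (striatal neurons). Without BSKO 2 the values were 0.84, 0.76, 0.23, -0.44 and -0.84 in the same order, so that of microglia changed sign. These describe arrays that differ in genotype. The part of any of these cells in the Vcam1 values was not tested.

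Itga4, the alpha-4 chain of the integrin that binds Vcam1, fell in BSKO brain when BSKO 2 was left out. It read -0.521, -0.019, -0.374 and -0.459 on BSKO 1 to 4, against 0.453, 0.286, 0.170 and 0.223 on WT 1 to 4, as the mean of 3 probe sets. All BSKO arrays were below all WT arrays, and BSKO 2 was the nearest to WT. The difference was -0.63 with 8 arrays (SE 0.13, limma adjusted p = 0.132) and -0.735 without BSKO 2 (SE 0.083, limma adjusted p = 0.0128). Its probe set 1427615_at differed by -0.099 in that fit, against -1.22 for 1421194_at and -0.89 for 1450155_at. The call was lost without WT 2 (limma adjusted p = 0.0679) and held in the 6 fits that each left out another array. The genes whose pattern over the 8 arrays was most like that of Vcam1 were Il1r1, the receptor for interleukin-1 (Pearson r = 0.979), Txnip (r = 0.978) and Larp1 (r = 0.974), ranked among 12393 genes with the genotype difference included. Il1r1 read -0.352, -1.28, -0.045 and -0.662 on BSKO 1 to 4, against 0.671, 0.687, 0.289 and 0.045 in WT. Its difference was -1.01 with 8 arrays (limma adjusted p = 0.218) and -0.78 without BSKO 2 (limma adjusted p = 0.0872).

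**Figure D3:**
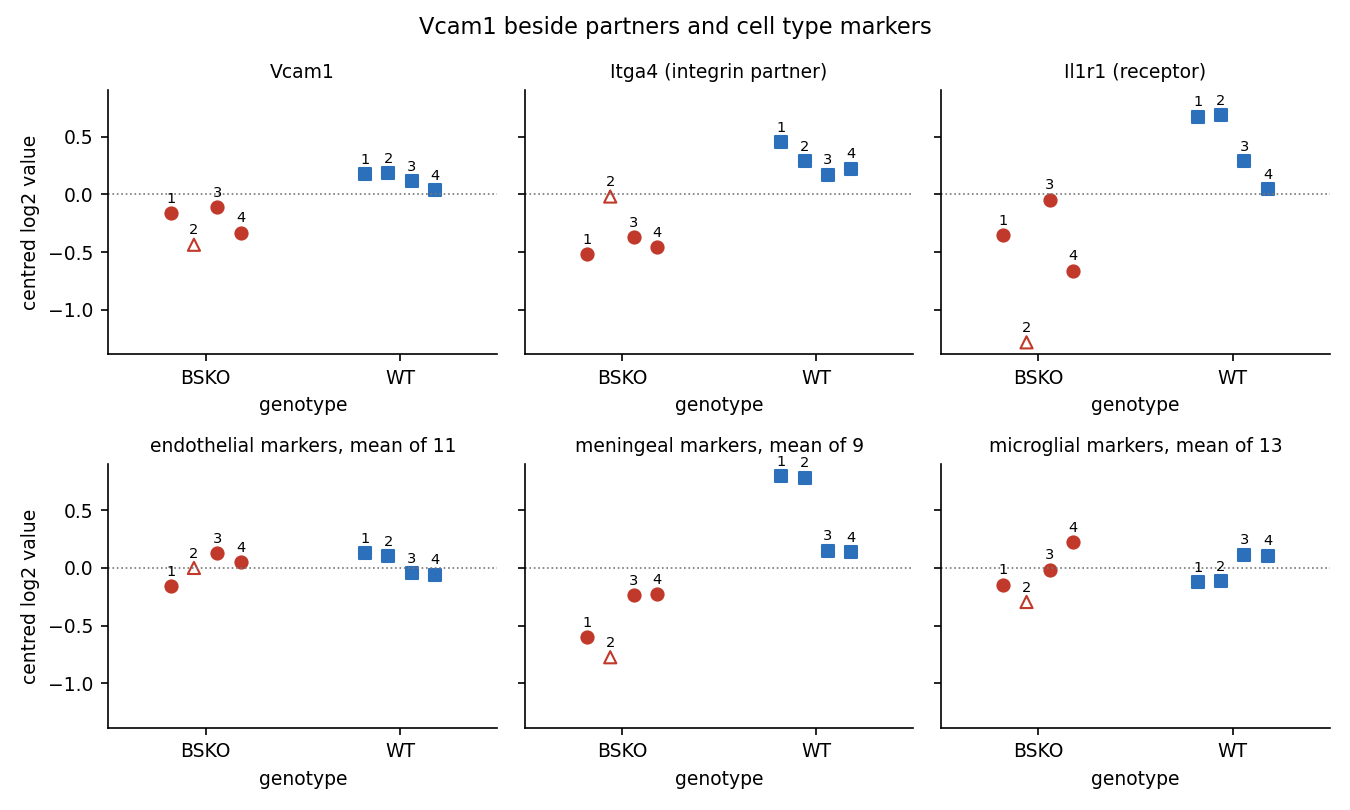
Centred log2 values of Vcam1, Itga4 and Il1r1 (means of their probe sets) and means of 3 marker lists on each array, with BSKO in red left of WT in blue, replicate numbers above the points and BSKO 2 as an open triangle. Vcam1, Itga4, Il1r1 and the meningeal mean have all BSKO arrays below all WT arrays, whereas the endothelial and microglial means overlap.

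Ccl2 encodes the chemokine that draws monocytes through the receptor Ccr2. Its probe set 1420380_at read -0.031, 0.292, 0.002 and -0.002 on BSKO 1 to 4, against -0.138, 0.103, 0.002 and -0.091 on WT 1 to 4. BSKO 2 was the highest array and the other BSKO arrays lay inside the WT range. The difference was 0.096 with 8 arrays (SE 0.11, limma adjusted p = 0.677) and 0.021 without BSKO 2 (SE 0.073, 95% interval -0.15 to 0.19, limma adjusted p = 0.903). That interval reaches 1.14-fold at its upper end. Centred values carry no brightness, so a probe set too dim to respond cannot be told from unchanged RNA. Ccr2 itself differed by -0.38 without BSKO 2 (limma adjusted p = 0.190).

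Il1b encodes interleukin-1 beta, a cytokine that both activates NF-kB and is made in response to it. Probe set 1449399_a_at read 0.108, 0.621, -0.007 and -0.108 on BSKO 1 to 4, against 0.007, -0.272, 0.053 and -0.051 on WT 1 to 4. BSKO 2 was again the highest, and the others were spread across the WT range and just above it. The difference was 0.22 with 8 arrays (SE 0.17, limma adjusted p = 0.566) and 0.063 without BSKO 2 (SE 0.095, 95% interval -0.16 to 0.28, limma adjusted p = 0.742). Il1rap, the second chain of its receptor, differed by -0.24 in that fit (limma adjusted p = 0.119).

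Socs3 encodes a suppressor of cytokine signalling that STAT3 induces downstream of interleukin-6 type cytokines. Probe set 1416576_at read 0.034, 0.083, 0.211 and -0.111 on BSKO 1 to 4, against -0.476, -0.034, -0.234 and 0.039 on WT 1 to 4. Probe set 1455899_x_at had 0.047, 1.19, -0.474 and -0.206 in BSKO, against 0.040, -0.040, -0.113 and 0.194 in WT. On 1456212_x_at the BSKO values were 0.255, 1.24, -0.150 and -0.143, against 0.307, -0.356, -0.125 and 0.125 in WT. The genotypes overlapped on all 3, and BSKO 2 was the highest array on both probe sets that can bind other transcripts. Without BSKO 2 the 3 disagreed in sign, with differences of 0.22 on 1416576_at and -0.23 on 1455899_x_at and one of almost 0 on 1456212_x_at. Their mean differed by 0.22 with 8 arrays (SE 0.21, limma adjusted p = 0.636) and by -0.004 without BSKO 2 (SE 0.098, 95% interval -0.23 to 0.22, limma adjusted p = 0.988).

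The wider pathway was read from 7 lists with 109 measured genes. With 8 arrays 0 of them passed, where 0.0726% of all genes did, with a smallest limma adjusted p of 0.0732, and 12 had an unadjusted p under 0.05, against 12.2% of all genes. Without BSKO 2, 4 passed (3.67%, against 2.15% of all genes), 1 higher and 3 lower in BSKO. They were Itga4, already described, the cyclooxygenase gene Ptgs2 (-0.99, limma adjusted p = 0.0250), the coagulation starter tissue factor, F3 (-0.43, limma adjusted p = 0.0300), and Cish, a STAT5-induced relative of Socs3 (0.66, limma adjusted p = 0.0209). Cish was not called without BSKO 4, WT 1, WT 2 or WT 4 (limma adjusted p up to 0.0825), Ptgs2 not without BSKO 4 or any of the WT arrays (up to 0.0849), and F3 not without any array other than BSKO 1 (up to 0.104).

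Among 11 other subunits and inhibitors, 0 passed, with a median difference of 0.037 without BSKO 2. Nfkbiz, an atypical IkB, differed by -0.28, N4bp1 by 0.37, Nfkbie by 0.18 and Otulin by 0.21. Of 17 kinases and adaptors 0 passed (median 0.031), with 0.66 for Traf5, 0.22 for Irak1, 0.30 for Tab1 and 0.12 for Tab2. Of 21 ligands and receptors 0 passed (median -0.011), with -0.20 for Tlr4 and -0.15 for Tlr3 beside the interleukin-1 receptor chains. Of 26 other targets 2 passed, both lower (median -0.051), and Cxcl1 differed by -0.34, Ccl5 by -0.49, Cx3cl1 by 0.41 and Mmp9 by -0.18. In the 18 genes of interleukin-6 type and STAT signalling 1 passed, Cish, and 13 had positive differences, against 53.6% of all genes (median 0.13, against 0.015 over all genes). The 4 others with the smallest p were all positive, with 0.35 for Jak2, 0.31 for Socs7, 0.24 for Cntfr and 0.22 for Il6st. Of the 5 negative genes, Lif (-0.24) and Osmr (-0.21), singled out after their values were seen, also had an unadjusted p under 0.05. Of 8 enzymes that acetylate or deacetylate RelA or their partners 0 passed (median 0.057), with 0.48 for Brms1, -0.24 for Kat2b and 0.23 for Crebbp. Of 8 integrin chains and chemokine receptors 1 passed, Itga4, and Ackr2 differed by 0.27, Itgb1 by -0.12 and Itgal by 0.21.

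**Figure D4:**
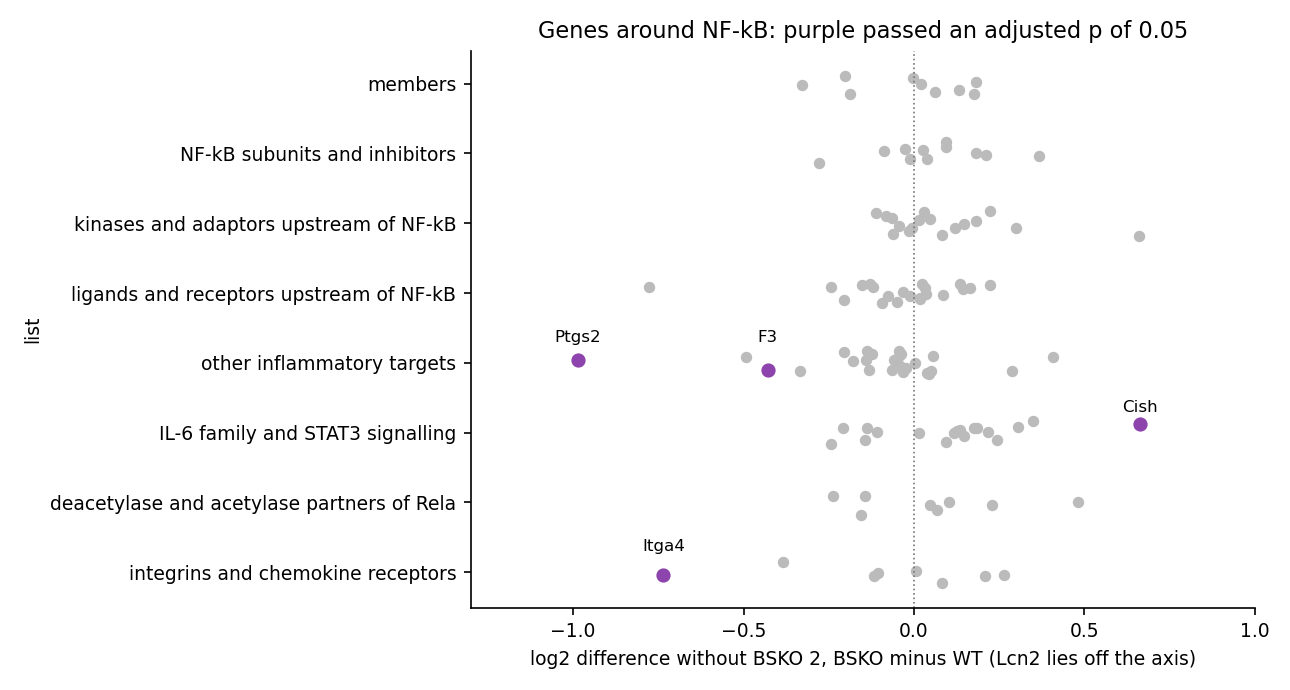
Log2 difference between BSKO and WT without BSKO 2 (horizontal axis) for the 9 members and for each measured gene of the 7 lists (grey points), with genes that passed a limma adjusted p of 0.05 in purple. No member is purple, Ptgs2 (-0.99), F3 (-0.43) and Itga4 (-0.73) lie to the left and Cish (0.66) to the right.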

How the data were processed

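The authors made the table with RMA, per the submitters' processing notes, which name no version. The deposited values are on a log2 scale, and in 22689 of 22690 probe sets the median over the arrays is 0, a centring that no label records. Here 64 control probe sets were left out and 22626 were tested, with no filter on low values, since centred values carry no brightness. Symbols came from the platform annotation, of which 20351 of 20380 probe sets with 1 symbol matched RefSeq GRCm38.p6 by gene number.

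The comparison of BSKO with WT used limma 3.58.1 under R 4.3.3, with its lmFit and eBayes steps, two-sided and without covariates, and Benjamini-Hochberg adjustment over all probe sets, or over all 12393 genes as means of their probe sets. Precision is limited by there being 4 arrays a genotype. Members and lists were chosen with earlier results of these data known. The text names all members, the called genes and up to 4 others with the smallest p of each pathway list, up to 2 of each marker list, and the 3 genes best correlated with Vcam1. Alternatives covered normalization, centring, probe sets that match more than a single transcript, moderation, weights, blocks, single arrays, single probe sets and the threshold. In simulated data with 200 changed probe sets among 22626, 2-fold changes were recovered in 55.2% with 8 arrays and 82.1% without BSKO 2, and 1.5-fold changes in 23.9% and 32.8%. The simulated errors were independent, with the same spread on every array. They held no array like BSKO 2 and no offset shared between arrays, so the rates need not hold for these data.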

Additional observations from a re-analysis of the deposited data

Results flagged for a closer look

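In 6 of the 34 sets of 4 values (17 probe sets in each genotype), 1 array lay apart from the other 3 by a gap that, over the whole range, passed Dixon's critical value for 4 samples. Chance gives such a gap at a rate of about 0.05. In 5 of the 6 the array was BSKO 2, which lay at 0.908 on Nfkbia 1420088_at, 0.607 on Nfkbia 1449731_s_at, -1.74 on Icam1 1424067_at, -1.71 on Vcam1 1451314_a_at and 0.292 on Ccl2 1420380_at. The sixth was WT 1 on Rela 1419536_a_at, at -0.003, against -0.190 to -0.165 on the other 3 WT arrays.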

How the results depend on the processing

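The count of member probe sets called, 0 in both fits, stayed at 0 with 8 arrays except with array weights (5, of Nfkbia and Vcam1) and quantile normalization (1, of Vcam1). Without BSKO 2 it was 6 with array weights (Nfkbia, Vcam1 and Nfkb2), 1 with quantile normalization, 2 once a term set replicates 1 and 2 apart from 3 and 4 (Vcam1) and 3 at a threshold of 0.10, and lay between 0 and 1 when each array was left out, the 1 being Vcam1 1448162_at without BSKO 1. The count over all probe sets, 7 with 8 arrays, was 66 at a threshold of 0.10, 2617 with array weights, 678 after quantile normalization, 84 with the term for replicate pairs and 108 with trend and robust settings, and 0 to 369 with each array left out. Without BSKO 2, where it was 369, it was 1131, 3005 and 744 at that threshold, with array weights and with that term, and 19 to 1069 with 1 more array left out. With the replicate number as a block 0 probe sets were called in either fit, over all or among members, and Itga4, Cish, Ptgs2 and F3 were no longer called. Same-numbered arrays correlated by 0.056 to 0.14 in their deviations. Different numbers within replicates 1 and 2 or within 3 and 4 gave 0.031 to 0.165, and numbers across those sets -0.147 to -0.037. The numbers are thus not shown to pair single arrays, while replicates 1 and 2 lay apart from 3 and 4 across the genotypes.

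Of 279 differences of the 9 genes under alternatives, 14 changed sign, none of them past the threshold. Nfkbia was 0.14 on probe set 1420088_at with 8 arrays. Il1b was -0.005 without BSKO 2 under the block and -0.005 to 0.116 with each array left out, and Ccl2 -0.015 to 0.065. Socs3 was -0.033 with array weights and 8 arrays and -0.004 to 0.327 with each array left out. Without BSKO 2 Socs3 was 0.020 after quantile normalization, 0.006 with the term for replicate pairs, and -0.090 to 0.055 with each array left out. It was 0.220 on 1416576_at alone or without the _s_at, _x_at and _a_at probe sets. In 5 fits a gene passed that had not: Vcam1 in 3 and Nfkbia with array weights in both (-0.25, limma adjusted p = 0.0364, and -0.26, limma adjusted p = 0.0289, in a range of 0.0289 to 0.911 over all). In the weighted fit over probe sets with 8 arrays, BSKO 2 had a weight of 0.0456 and BSKO 4 one of 3.69. Without the probe sets that end in _s_at, _x_at or _a_at, Rela, Nfkb2 and Il1b have no value. The cause of these changes was not tested.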

Other observations

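Inflammatory targets outside the members had extreme values on BSKO 2 alone or on WT 1 and WT 2 together, and these genes were picked after their values were seen. Lcn2, an iron-binding acute-phase protein, read -0.154, 0.131, -0.130 and -0.009 on BSKO 1 to 4, against 5.14, 5.15, -0.323 and 0.009 on WT 1 to 4. It was the highest of all 22626 probe sets on both WT 1 and WT 2, and those arrays lay 32.2-fold above the highest of the other 6. The developmental regulators Gata3, Hoxc4 and Irx2 were also higher on WT 1 and WT 2 than on every other array, by 2.11, 2.06 and 1.83. The Lcn2 difference of -2.59 without BSKO 2 (SE 1.45, limma adjusted p = 0.342) did not pass. Saa3, another acute-phase gene, was the highest of all probe sets on BSKO 2, at 5.10, against -0.182 to 0.262 on the other 7 arrays. Ccl5, a chemokine for T cells, read 2.89 on BSKO 2 and ranked 40 there, against -0.458 to 0.556 on the others.

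Members were read on the same arrays. On WT 1 and WT 2 Il1b read 0.007 and -0.272 and Ccl2 -0.138 and 0.103, while Icam1 read 0.633 and 0.173. On BSKO 2 the member readings ran between -1.74 for Icam1 and 1.24 for a Socs3 probe set. No difference between these genes was tested.

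Of the other marker lists, 8 leukocyte markers had a median difference of -0.13 without BSKO 2 (Ptprc -0.66, S100a9 -0.15), and 3 erythroid markers one of -0.061 (Alas2 -0.34, Hba-a1 -0.061). The median was -0.31 for 5 choroid plexus markers (Kl -0.67, Ttr -0.31). Their mean was -1.94 on BSKO 4, against 0.504 and 0.288 on BSKO 1 and 3 and -0.176 to 0.19 in WT. For 7 pericyte and smooth muscle markers the median was 0.045 (Tagln 0.57, Pdgfrb 0.10). It was -0.017 for 6 neuronal markers (Nefl -0.38, Stmn2 -0.18), of which 3 were positive and 3 negative. The 5 striatal markers had a median of 1.87 (Drd2 1.80, Rgs9 1.65). By limma 0 markers of these lists passed in either fit.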
